A study of Mus musculus with 4 samples.

Results

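The effector cytokine genes of the NKT cell subsets are the 10 genes *Ifng*, *Tnf*, *Il2*, *Il4*, *Il13*, *Il10*, *Il17a*, *Il21*, *Il22* and *Csf2*. They were chosen by name from what each subset is known to secrete, not by a measured value, with earlier results of these data known. All 10 are among the 25239 genes counted in the table. The RNA came from NKT cells of the small intestinal lamina propria (SI-LP) of WT C57BL/6Jax mice, and was sequenced as 4 libraries from 2 experiments, replicates 3 and 4 in the first and replicates 1 and 2 in the second. All 4 libraries are of a single condition: the mice carried no mutated allele and received no stimulus, other than an anti-ARTC2 nanobody injected shortly before harvest of the tissue. Cells were sorted as live TCRβ+ cells that bound the CD1d tetramer loaded with the lipid PBS57 and lacked B220, CD11b, CD11c and CD8, so NKT1, NKT2 and NKT17 cells were sorted together. Lymphoid NKT cells and stimulated cells were not analysed here. No source used here says whether a library held the cells of 1 mouse or of several, so p-values measure the spread between these libraries.

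NKT cells recognise lipids presented by CD1d and, unlike most naive T cells, can transcribe cytokine genes soon after activation. The T-bet-dependent NKT1 cells are known for interferon-γ, the PLZF-high NKT2 cells for IL-4 and IL-13, and the NKT17 cells for IL-17A and IL-22, while other secreted products such as TNF, IL-2, IL-10, IL-21 and GM-CSF are shared between lineages. Transcription of most of these genes in T cells is driven by NFAT, the calcium-regulated factor downstream of the T cell receptor, together with the lineage factor.

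The sequences just upstream of 4 of the genes are shown because they separate the most abundant transcript (*Ifng*), the linked *Il4* and *Il13* pair and a gene with 0 counts (*Il2*). Each is the 250 bases before the RefSeq transcription start on GRCm38.p6, 5′ to 3′ on the gene's strand, with every match to the NFAT core GGAAA, on either strand, in capitals. *Ifng* lies on the plus strand, at chr10:118440796-118441045, *Il4* on the minus strand at chr11:53618666-53618915, *Il13* on the minus strand at chr11:53634703-53634952 and *Il2* on the minus strand at chr3:37125955-37126204.
Ifng: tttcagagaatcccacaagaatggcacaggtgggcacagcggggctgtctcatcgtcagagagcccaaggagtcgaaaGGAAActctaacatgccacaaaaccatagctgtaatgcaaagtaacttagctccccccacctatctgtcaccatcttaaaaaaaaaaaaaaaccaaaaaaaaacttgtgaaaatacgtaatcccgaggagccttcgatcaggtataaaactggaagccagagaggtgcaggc
Il4: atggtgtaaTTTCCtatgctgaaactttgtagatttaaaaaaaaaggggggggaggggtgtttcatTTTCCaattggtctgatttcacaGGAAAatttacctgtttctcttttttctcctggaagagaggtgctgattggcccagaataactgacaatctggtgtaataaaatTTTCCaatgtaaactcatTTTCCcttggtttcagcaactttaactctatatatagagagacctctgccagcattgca
Il13: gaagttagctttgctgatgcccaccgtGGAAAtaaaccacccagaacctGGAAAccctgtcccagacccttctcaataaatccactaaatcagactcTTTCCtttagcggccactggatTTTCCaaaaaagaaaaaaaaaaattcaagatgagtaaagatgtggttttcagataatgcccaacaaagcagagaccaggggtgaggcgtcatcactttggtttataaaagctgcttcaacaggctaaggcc
Il2: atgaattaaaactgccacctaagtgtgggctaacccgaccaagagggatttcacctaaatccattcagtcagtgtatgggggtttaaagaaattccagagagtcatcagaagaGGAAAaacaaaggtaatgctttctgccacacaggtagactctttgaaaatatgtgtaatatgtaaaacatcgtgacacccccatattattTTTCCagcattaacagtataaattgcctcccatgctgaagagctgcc
The core matched 5 times before *Il4*, 4 times before *Il13*, 2 times before *Il2* and 1 time before *Ifng*. Among the other members with a sequence, *Tnf* and *Il21* had 3 matches each, *Csf2* 2, *Il22* 1 and *Il17a* 0. Of 27025 promoters in the RefSeq table, 55.6% held at least 1 match, the median was 1, and 1.61% held 4 or more. The letters TATAA on the coding strand began 30 bases before the start of *Ifng*, 29 before *Tnf* and *Il13*, and 31 before *Il2* and *Il17a*. They occurred in 16.7% of all promoters, and in *Il22* they lay 170 bases before the annotated start. The AP-1 letters TGANTCA, sought on both strands, were found only before *Il17a* among these genes, against 6.87% of all promoters. The T-box letters GGTGTGA were found before none of the 9 genes with a sequence and in 3.31% of all promoters. These matches are a description of letters in a window. A sequence for *Il10* was not used here.

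Total counts were 7233071, 8732858, 5487147 and 3882803 for replicates 1 to 4, so that 3 counts, the smallest level read as above 0, correspond to between 0.287 and 0.753 CPM (counts relative to library size, scaled with TMM factors). T cell receptor complex genes and NKT cell markers were present in every library, with all 10 T cell markers and all 7 NKT cell markers above 3 counts in each. The libraries differed in RNA of other cells. The 21 epithelial markers took 0.0193% of the counts in replicate 3 (95% Wilson interval 0.0182 to 0.0205), 0.102% (0.0996 to 0.104) in replicate 1, 0.999% (0.993 to 1.01) in replicate 2 and 3.02% (2.998 to 3.032) in replicate 4. Most of the share in replicate 4 was *Lyz1*, with 84299 counts there against 2171, 3534 and 47 in replicates 1 to 3. *Tff3*, *Krt19* and *Fabp2*, the next by mean TPM, were at 950, 930 and 630 CPM in replicate 2 and at 468, 926 and 550 in replicate 4. The shares therefore do not rank replicates 2 and 4 by epithelial RNA. The T cell markers took 0.415% (0.410 to 0.421) in replicate 3, 0.331% (0.327 to 0.335) in replicate 1, 0.193% (0.189 to 0.198) in replicate 4 and 0.139% (0.137 to 0.142) in replicate 2. Within each experiment, then, 1 library held more epithelial and less T cell RNA. Plasma and B cell markers took 0.656% (0.650 to 0.662) of replicate 1 and 0.840% (0.834 to 0.846) of replicate 2, against 0.0112% (0.0104 to 0.0121) of replicate 3 and 0.0382% (0.0363 to 0.0402) of replicate 4. Of the CD8 and γδ T cell markers 3 are in the table, and they took at most 0.00306% of the counts. That share was in replicate 4 and was mostly *Sox13*, with 118 counts. The γδ T cell receptor genes *Trdc* and *Tcrg-C1* are not in the table, so RNA of γδ T cells was hardly measured. Intervals and the 3-count limit cover counting error only, since reads copied by PCR are not independent molecules.

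*Ifng* and *Il4*, the hallmark NKT1 and NKT2 transcripts, were measured in every library, and the hallmark NKT17 transcript *Il17a* was detected in none at this depth. Of the 10 genes, 4 (*Ifng*, *Il4*, *Tnf* and *Csf2*) had more than 3 counts in every library, and 3 of these had at least 10 in every library, *Csf2* having 5 in replicate 1. *Il10*, *Il13* and *Il22* were above 3 counts in some libraries only. *Il21*, *Il2* and *Il17a* had at most 3 counts in every library, and *Il2* and *Il17a* had 0 in all 4. For comparison, 32.05% of all genes in the table had at least 10 counts in every library and 35.7% had 0 counts throughout. Without replicates 2 and 4, the libraries with more epithelial RNA in their experiment, 5 genes had more than 3 counts in both remaining libraries, *Il13* being the one added.

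**Figure D1:**
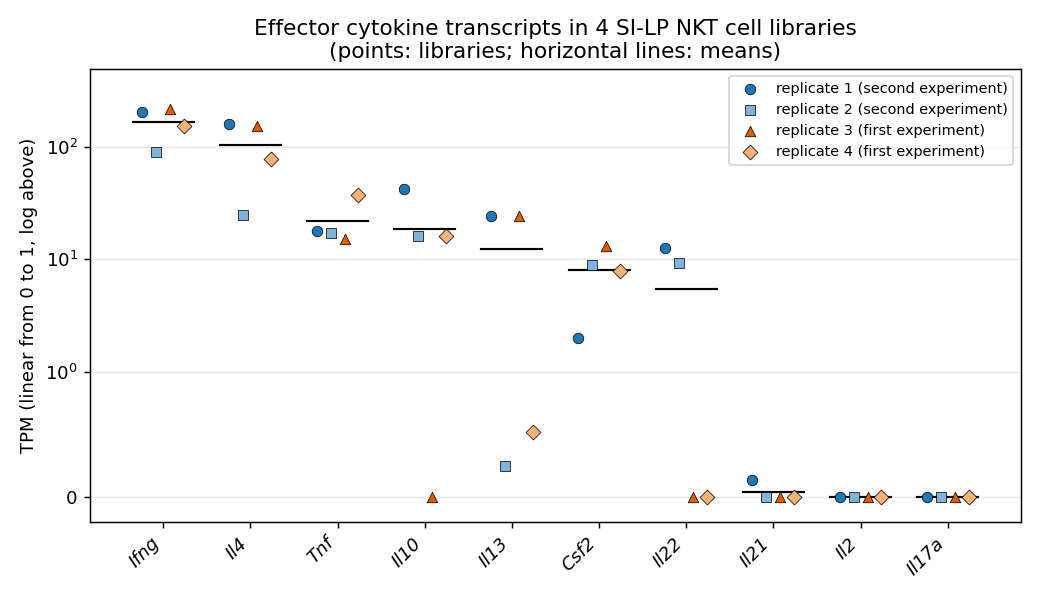
Length-scaled level (TPM, linear from 0 to 1 and logarithmic above) of the 10 effector cytokine genes in each of 4 SI-LP NKT cell libraries, with a horizontal line at the mean. *Ifng* lies above *Il4* in every library, *Il13* is split between a pair of libraries near 24.5 TPM and a pair below 1 TPM, and *Il2* and *Il17a* lie at 0.

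*Ifng* encodes interferon-γ, the defining NKT1 product that activates macrophages and epithelial cells, and spans 4 exons at chr10:118441046-118445894 on the plus strand. It had 597, 371, 482 and 303 counts in replicates 1 to 4, or 82.7, 35.5, 108 and 76.0 CPM. It was the lowest in replicate 2, and its highest library was 3.03-fold above its lowest. The mean was 75.5 ± 29.9 CPM (SD, n = 4), the smallest relative spread of the genes detected (coefficient of variation 39.6%). On the length-scaled TPM scale it reached 167 ± 58.2, above 92.6% of the 11689 genes that passed the count filter (at least 10 counts in at least 2 libraries). The next annotated gene at higher coordinates, the antisense non-coding RNA *Ifngas1*, had 0, 0, 5 and 10 counts and begins 56140 bases away, and no other gene shares an exon with *Ifng*.

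*Tnf* encodes tumour necrosis factor, an inflammatory cytokine of T cells and of macrophages, at chr17:35199367-35202007 on the minus strand. It had 71, 96, 46 and 100 counts, or 9.84, 9.19, 10.3 and 25.1 CPM. Replicate 4 stood apart, and the other 3 libraries lay within 9.19 to 10.3 CPM. The mean level was 13.6 ± 7.68 CPM and 22.0 ± 10.5 TPM (SD, n = 4). Replicate 4 was also the library with the highest share of myeloid markers, 0.0171% (95% Wilson interval 0.0158 to 0.0184) against 0.00279% to 0.00945% in the others, with 22 counts of *Cd14* against 0, 0 and 1. The part of those cells, or of the epithelial RNA in that library, in the level of *Tnf* was not tested. *Ltb* and *Lta*, which flank *Tnf* and encode the lymphotoxins, had 227, 52, 130 and 97 counts and 1, 1, 30 and 0 counts, and neither was highest where *Tnf* was.

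*Il2*, the T cell growth factor gene at chr3:37120716-37125954, had 0 counts in all 4 libraries, which allows no more than 0.753 CPM in the shallowest of them. Its receptor was abundant: *Il2rb*, the β chain that also serves IL-15, and *Il2rg*, the common γ chain, were the receptor genes with the highest TPM (1649 ± 1061 and 1145 ± 780), and the high-affinity chain *Il2ra* was at 121 ± 67.5 TPM (SD, n = 4).

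*Il4* encodes interleukin 4, the defining NKT2 product and a driver of type 2 responses, at chr11:53612461-53618665 on the minus strand. It had 323, 71, 235 and 106 counts, or 44.8, 6.80, 52.5 and 26.6 CPM. It was lower in replicate 2 than in 1 and in replicate 4 than in 3, and ran over a 7.72-fold range. The mean was 32.7 ± 20.4 CPM and 104 ± 64.3 TPM (SD, n = 4), above 87.1% of the genes that passed the count filter.

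Mast cells and eosinophils are other sources of IL-4 and IL-13. Of their 10 markers, 6 (among them *Mcpt1*, *Mcpt2* and *Fcer1a*) had 0 counts in all 4 libraries, and the list took 0.00648%, 0.00958%, 0.000200% and 0.00366% of the counts in replicates 1 to 4, with *Kit* at 6, 657, 9 and 109 counts and *Prg2* at 459, 174, 2 and 28.

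*Il13* encodes interleukin 13, which acts on goblet and tuft cells, and lies 12657 bases from *Il4* on the same strand, at chr11:53631323-53634702. It had 71, 1, 54 and 1 counts, or 9.84, 0.0958, 12.1 and 0.251 CPM. The libraries fell into a pair with 71 and 54 counts, 1 from each experiment, and a pair with a single count, again 1 from each. The mean of 5.56 ± 6.29 CPM (SD, n = 4) was 3.39 without replicate 3. The pair with a single count is the one with more epithelial and less T cell RNA. Per 1000 counts of the T cell markers it was still at 2.96 and 2.37 in the first of these pairs, against 0.0823 for replicate 2 and 0.133 for replicate 4, which rest on 1 count each. *Il4* on the same scale was at 13.5, 5.85, 10.3 and 14.1 in replicates 1 to 4. In the first experiment *Il4* was therefore no lower per T cell marker count in replicate 4 than in replicate 3, whereas *Il13* was. Of the genes on either side of the pair, the kinesin gene *Kif3a* had 61.9, 13.3, 20.1 and 29.2 TPM, and *Rad50*, a DNA repair gene, had 89.7, 52.2, 28.0 and 48.2 TPM. In the first experiment both were higher in replicate 4 than in replicate 3, the direction opposite to that of *Il4* and *Il13*. In the second experiment both were lower in replicate 2 than in replicate 1, the same direction as *Il4* and *Il13*.

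**Figure D2:**
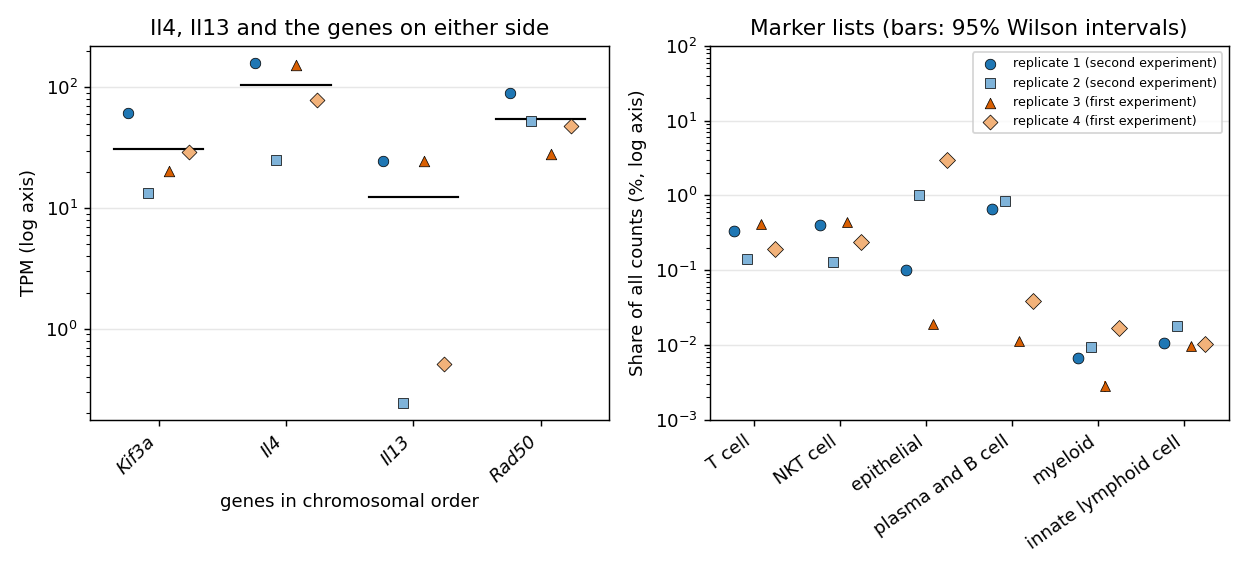
Left, TPM (log axis) of *Il4*, *Il13* and the annotated genes on either side, in chromosomal order, in each library with means as lines. Right, share of all counts (%, log axis) taken by 6 marker lists in each library with 95% Wilson intervals: *Il13* is low in replicates 2 and 4, where epithelial markers take 0.999% and 3.02% of the counts. Most of the epithelial share in replicate 4 is *Lyz1*.

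*Il10*, which encodes the inhibitory cytokine interleukin 10, lies at chr1:131019845-131024970 on the plus strand and had 132, 71, 0 and 34 counts. It was at 18.3, 6.80 and 8.53 CPM in replicates 1, 2 and 4, and 0 counts in replicate 3 allow up to 0.670 CPM there. Replicate 3 had the largest share of T cell markers and the smallest shares of epithelial, plasma and B cell, and myeloid markers. *Jchain*, the leading plasma cell gene, had 11 counts there against 44022, 66662 and 780 in replicates 1, 2 and 4. Regulatory T cells also secrete IL-10. Of their 3 markers, *Foxp3* had 4, 31, 2 and 0 counts, *Ctla4* 1771, 1524, 185 and 109, and *Ikzf2* 3278, 1748, 1526 and 543. All 3 were lowest in replicate 4, where *Il10* had 34 counts, and not in replicate 3. The part of other cells in the level of *Il10* was not tested. The mean was 8.40 ± 7.55 CPM (5.11 without replicate 1) and 18.6 ± 17.4 TPM (SD, n = 4). *Maf*, a transcription factor that promotes *Il10* transcription in T cells, was present in all 4 libraries, replicate 3 included, at 160, 64.2, 189 and 91.9 TPM.

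*Il17a*, at chr1:20730905-20734496, encodes interleukin 17A, the defining NKT17 product that recruits neutrophils, and had 0 counts in all 4 libraries. The adjacent *Il17f*, which encodes its closest relative, also had 0 counts in all 4.

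*Il22* encodes interleukin 22, an inducer of epithelial antimicrobial genes, at chr10:118204964-118210046. It had 33 and 34 counts in replicates 1 and 2 of the second experiment and 0 in both libraries of the first. The experiments therefore did not overlap, as was so in this direction for 14.7% of all genes tested. The levels were 4.57 and 3.26 CPM (a mean over 4 libraries of 1.96, or 1.09 without replicate 1) against 0, and 0 counts allow up to 0.670 CPM in replicate 3 and 0.753 in replicate 4. *Il22* passed the count filter through the second experiment alone, which fixed this direction. Its near-identical copy *Iltifb* had 0 counts in all 4 libraries. How reads that match both genes were placed was not tested, which leaves the counts of *Il22* uncertain. Innate lymphoid cells are another source of IL-22. Their 10 markers took 0.0108% (95% Wilson interval 0.0101 to 0.0116) of the counts in replicate 1 and 0.0178% (0.0170 to 0.0187) in replicate 2, against 0.00971% (0.00892 to 0.0106) in replicate 3 and 0.0102% (0.00927 to 0.0113) in replicate 4, with 5 of 10 above 3 counts in every library and *Ncr1* at 0 in all. The marker with the most counts in replicate 2 was *Kit*, also on the mast cell list, with 657 against 6, 9 and 109 in replicates 1, 3 and 4. The innate lymphoid list holds genes that NKT cells can express as well. The part of these cells in *Il22* was not tested.

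*Il21*, which encodes a helper cytokine for B cells and lies at chr3:37222759-37232636, had a single count, in replicate 1. *Csf2*, which encodes GM-CSF, the growth factor of macrophages and granulocytes, lies at chr11:54247270-54249899 and had 5, 31, 25 and 13 counts. It was at 0.693, 2.97, 5.58 and 3.26 CPM, lowest in replicate 1, where *Ifng*, *Il4*, *Il10*, *Il13* and *Il22* were all above their means. Its mean was 3.13 ± 2.00 CPM and 7.99 ± 4.64 TPM (SD, n = 4), and the neighbouring cytokine gene *Il3* had 0 counts in all 4 libraries.

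Ordered by mean TPM, the genes ran *Ifng*, *Il4*, *Tnf*, *Il10*, *Il13*, *Csf2*, *Il22* and *Il21*, with *Il2* and *Il17a* at 0. *Ifng* exceeded *Il4* in 4 of 4 libraries, by 1.29-fold in replicate 1, 3.64-fold in replicate 2, 1.43-fold in replicate 3 and 1.99-fold in replicate 4. The mean difference was 0.92 ± 0.66 (SD, n = 4) in log2(TPM + 1), with a p of 0.125 by a two-sided exact sign-flip permutation test (0.5625 after Benjamini-Hochberg adjustment over 9 neighbouring pairs), the smallest p that 4 libraries allow. Without replicates 2 and 4 the difference was 0.44, in the same direction in both libraries. *Il4* likewise exceeded *Tnf* in 4 of 4 libraries on the TPM scale, by 1.97 ± 1.40 in log2(TPM + 1), with the same exact p of 0.125 and adjusted p of 0.5625. From *Tnf* downwards no neighbour in the order was higher in every library: *Tnf* and *Il10*, *Il10* and *Il13*, and *Il13* and *Csf2* each changed places between libraries, with exact p-values of 0.5, 0.875 and 1.

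*Ifng* made up a similar part of the 10 genes' summed TPM in each library, 44.3%, 54.2%, 51.5% and 52.6% in replicates 1 to 4 (50.6% ± 4.41, SD, n = 4). The sum itself ran from 167 TPM in replicate 2 to 464 in replicate 1. *Il4* took 34.4%, 14.9%, 36.0% and 26.4%, a wider range, and its share was lowest where the sum was lowest. *Tnf* took 3.85%, 10.3%, 3.60% and 12.7%, more in replicate 2 than in 1 and in replicate 4 than in 3. Neither the share of *Ifng* nor its place above *Il4* shows what part of the cells was NKT1, since fewer cells of a type and less RNA per cell cannot be told apart in bulk RNA.

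**Figure D3:**
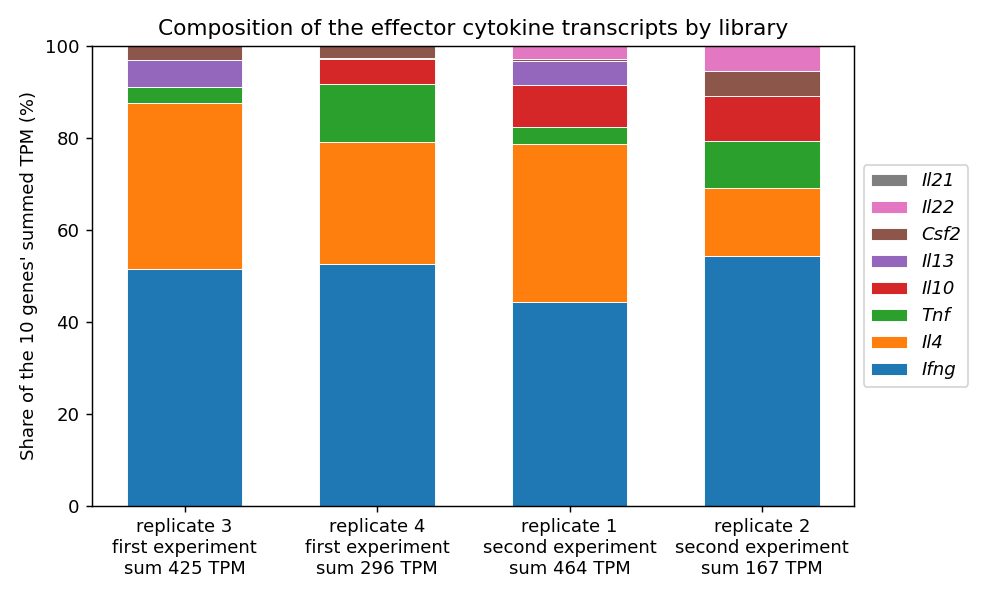
Share of the 10 genes' summed TPM (%) that each effector cytokine gene took in each library, with the sum under each bar. *Ifng* takes 44.3% to 54.2% in the 4 libraries, and *Il4* 14.9% to 36.0%.

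The contrast between the experiments, the single one that the labels allow, measures replicate error. Of 11689 genes tested, 0 (0%) passed at a Benjamini-Hochberg adjusted p of 0.05 in the quasi-likelihood test of edgeR, against 248 (2.12%) at the same p before adjustment. By DESeq2, 41 genes passed, none of them an effector cytokine gene. Of the 10 cytokine genes 7 passed the count filter, which *Il22* did through the libraries of the second experiment alone, and 0 of the other 6 were among the 248. The log2 fold change, second minus first experiment, was -0.64 ± 0.71 (SE) for *Ifng*, -0.62 ± 1.12 for *Il4* and -0.89 ± 1.25 for *Tnf*. For the genes with fewer counts it was 1.55 ± 2.19 for *Il10*, -0.31 ± 2.48 for *Il13* and -1.26 ± 1.97 for *Csf2*. These standard errors are larger than the differences. Without replicate 4 the value for *Il10* was 9.53, set against the 0 counts of replicate 3 alone. The fold change of *Il22* is not given, since the gene entered the test through the group where it was high. In CPM, 1 of the 7 genes (*Il22*, whose passing of the filter fixed this) lay above the first experiment in both libraries of the second, against 14.7% of all genes tested, and 2 (*Tnf* and *Csf2*) lay below it in both, as did 14.4%. On the TPM scale *Tnf* no longer separated the experiments, with 17.9 and 17.1 in the second and 15.3 and 37.6 in the first.

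Differences within an experiment were larger for some genes than those between experiments. *Ifng*, *Il4* and *Il13*, 3 of the 7 genes, were lower in CPM in replicate 4 than in 3 and in replicate 2 than in 1, a direction shared by 29.9% of all genes tested, and 0 of the 7 were higher in both, against 35.2%. *Ifng* differed by -0.50 and -1.22 in log2 CPM in the first and second experiment and *Il4* by -0.98 and -2.72. The 10 T cell markers had median differences of -1.48 and -1.11, against 0.08 and 0.13 for all genes tested, so that *Ifng* differed by less than these markers in the first experiment and by slightly more in the second.

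Counted per 1000 T cell marker counts, *Ifng* stood at 24.9, 30.5, 21.2 and 40.3 in replicates 1 to 4 (29.2 ± 8.34, SD, n = 4). On that scale its highest library was 1.91-fold above its lowest, against 3.03-fold in CPM, and replicate 4 rather than replicate 3 was the highest. *Il4* ranged 2.41-fold, against 7.72-fold in CPM, with replicate 2 the lowest on both. *Tnf* ranged more widely, 6.59-fold against 2.73-fold, at 2.96, 7.90, 2.02 and 13.3, and both libraries with more epithelial RNA were above both others. *Csf2* ranged 12.2-fold against 8.06-fold, at 0.209, 2.55, 1.10 and 1.73, and was higher in the library with more epithelial RNA in each experiment. Without replicate 1, which holds 5 counts of *Csf2*, its range was 2.33-fold.

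**Figure D4:**
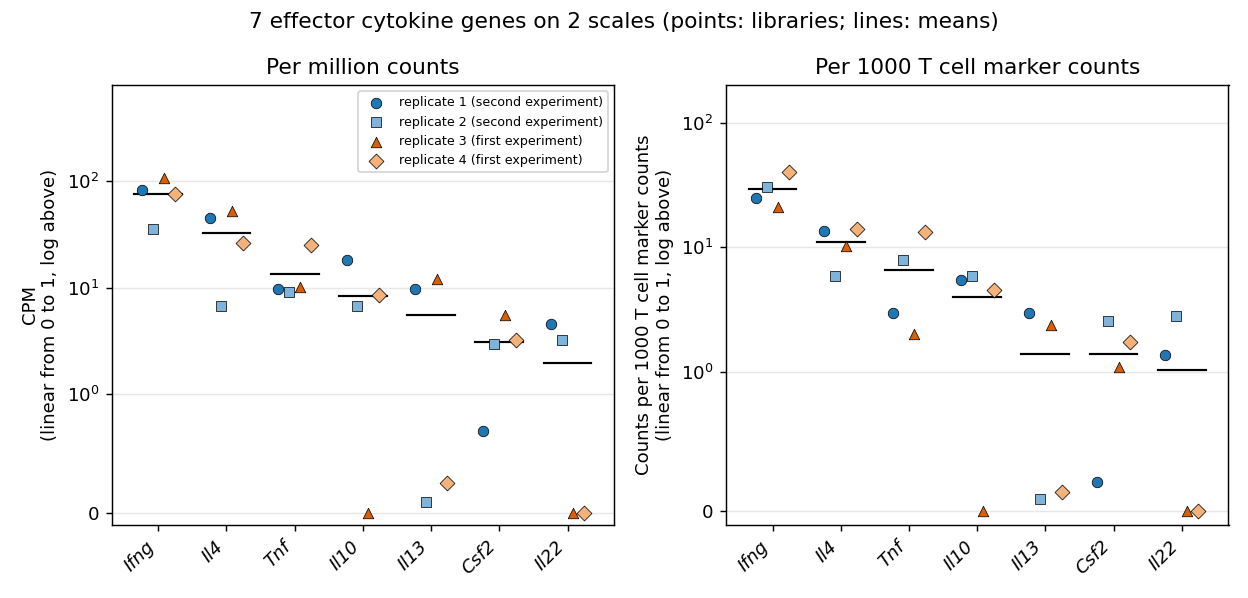
The 7 effector cytokine genes that passed the count filter, in CPM (left) and as counts per 1000 counts of the 10 T cell markers (right), with libraries as points and means as lines. Both axes are linear from 0 to 1 and logarithmic above, and neither is scaled by gene length: *Ifng* draws together on the right, from a 3.03-fold to a 1.91-fold range, while *Tnf* spreads from 2.73-fold to 6.59-fold.

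Receptor genes for these cytokines, with *Il2rb* and *Il2rg* already named as the most abundant, were measured on the same scale. Of 20 receptor subunit genes, 12 had more than 3 counts in every library, 17 were tested and 0 passed between the experiments. *Ifngr1*, the ligand-binding chain of the interferon-γ receptor, was at 749, 485, 1011 and 365 TPM in replicates 1 to 4, above *Ifng* in each. Its partner *Ifngr2*, which is needed for signalling, was at 7.51, 43.4, 5.48 and 65.5 TPM. *Ifngr2* was high in both libraries with more epithelial RNA and low in both others, the reverse of *Ifngr1* within each experiment. Among the TNF receptors, *Tnfrsf1b* was at 294 ± 214 TPM and *Tnfrsf1a* at 157 ± 84.5 (SD, n = 4). *Il4ra*, the chain shared by the IL-4 and IL-13 receptors, was at 103 ± 73.3 TPM, while *Il13ra2*, the decoy receptor for IL-13, had 0 counts in all 4.

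*Il22ra1*, the IL-22 receptor chain known from epithelial rather than blood-derived cells, had 3, 835, 5 and 273 counts, and *Il13ra1* had 45, 1703, 0 and 64. Both were higher in replicates 2 and 4 than in 1 and 3, the libraries with 0.999% and 3.02% epithelial marker counts. *Il21r* (157 ± 147 TPM) and *Il17ra* (73.3 ± 48.1 TPM) were above 3 counts in every library although their ligand genes *Il21* and *Il17a* had at most 1 count. *Il10ra*, needed for the response to IL-10, had 0, 12, 77 and 11 counts, with 0 counts in the library where *Il10* was highest and the most counts in the library where *Il10* had 0. These counts are low, and 0 counts in replicate 1 allow up to 0.416 CPM.

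The transcription factors that direct these programs were measured on the TPM scale as well. Of 15 genes, 13 had more than 3 counts in every library, and 0 of the 13 tested passed between the experiments. *Tbx21*, which encodes the NKT1 factor T-bet, was at 139, 20.3, 316 and 176 TPM, and its cofactor *Runx3* at 181, 56.5, 375 and 82.0. *Tbx21* was lowest in replicate 2 and highest in replicate 3, as were *Ifng* and the share of T cell markers. Counted per 1000 T cell marker counts, *Ifng* was instead lowest in replicate 3, at 21.2. The related factor gene *Eomes* had 0 counts in all 4, and *Hlx*, a T-bet partner, had 0, 0, 4 and 2. *Stat4*, which carries the IL-12 signal to *Ifng*, was at 263 ± 210 TPM (SD, n = 4).

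For the type 2 program, *Gata3* was at 115, 29.2, 145 and 72.4 TPM, and *Zbtb16*, which encodes PLZF, at 81.2, 19.6, 148 and 55.6. Both were lowest in replicate 2, as were *Il4* and the share of T cell markers. *Rora*, a factor of type 3 and type 2 lymphocytes, was at 192 ± 149 TPM, and *Ahr*, an environmental sensor that promotes *Il22*, was at 33.3 ± 21.8 TPM (SD, n = 4). *Ahr* was at 65.9 and 22.4 TPM in the second experiment and at 20.9 and 24.2 in the first, so that its levels overlapped between the experiments where those of *Il22* did not.

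**Figure D5:**
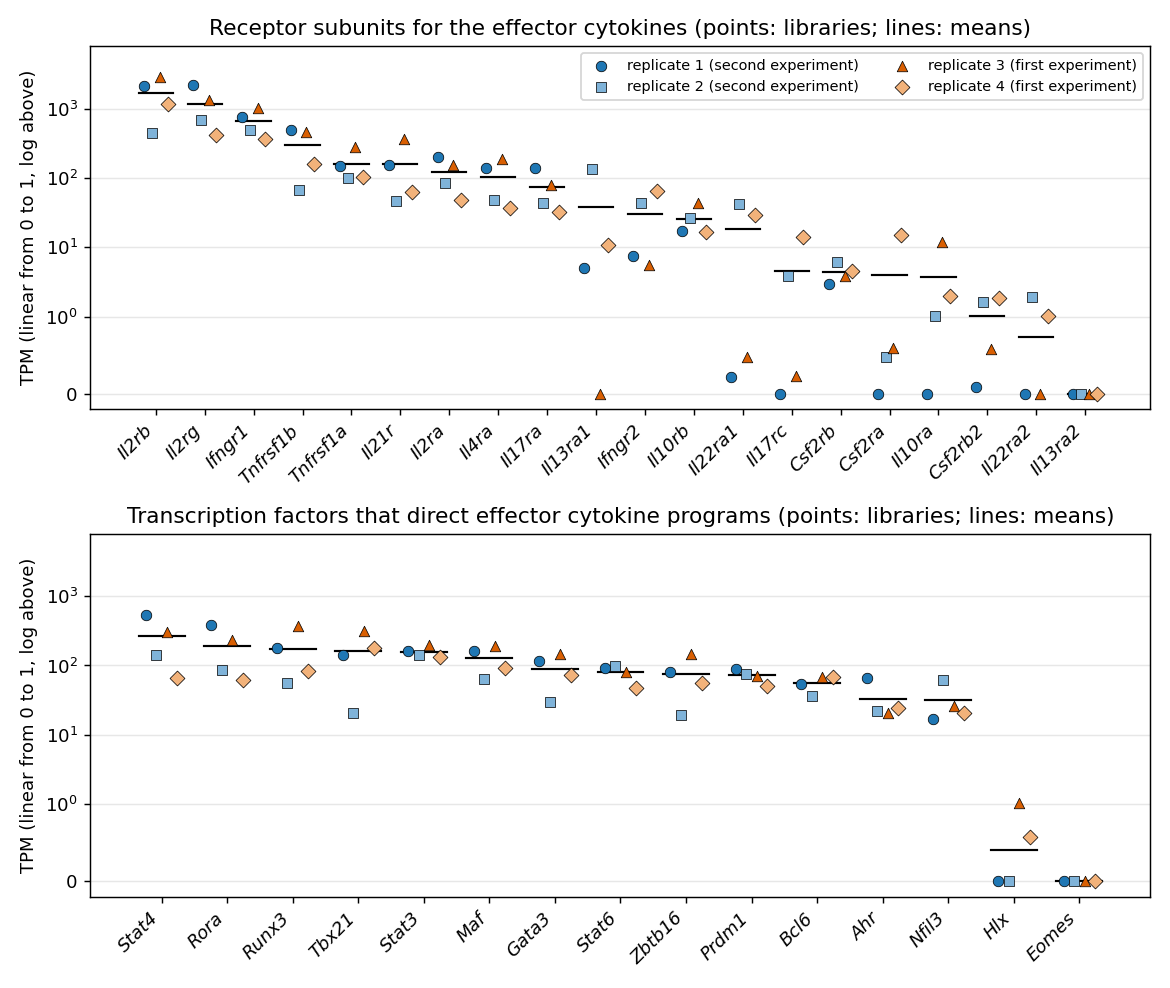
TPM (linear from 0 to 1, logarithmic above) of 20 receptor subunit genes and 15 transcription factor genes in each library, ordered by mean, with means as lines. *Il22ra1* and *Ifngr2* are high in replicates 2 and 4, *Il13ra1* is high in replicate 2, and 13 of the 15 factors have values above 1 TPM in every library.

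Among 51 cytokine genes in the table, the 10 effector genes and 41 others, *Ifng* had the highest mean TPM and *Il4* the third, with *Tgfb1* (144 ± 84.8 TPM), which encodes the regulatory TGF-β1, between them. *Flt3l*, *Ltb* and *Areg*, which encode a dendritic cell growth factor, lymphotoxin β and the epithelial repair factor amphiregulin, followed at 58.6 ± 25.9, 55.1 ± 30.3 and 44.7 ± 46.9 TPM (SD, n = 4). *Tnf* ranked 9, *Il10* 10, *Il13* 11, *Csf2* 13 and *Il22* 14. These ranks are of means and did not hold in every library. *Areg* was above *Ifng* in replicate 2, at 107 against 90.3 TPM, and *Tgfb1* in replicate 3, at 260 against 219. Of the 41 other cytokine genes, 5 had more than 3 counts in every library, 21 had at most 3 in every library, and 17 had 0 throughout. Of those 41, 9 were tested and 0 passed between the experiments.

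The genes whose pattern over the 4 libraries was nearest to that of *Ifng*, by root mean square difference in mean-centred log2 CPM, were *Zfp91* (0.0374), *Ints14* (0.0420) and *Myd88* (0.0439). For *Il4* they were *Itpr2* (0.0772), *Prkcq* (0.0896) and *Msantd2* (0.0964), and for *Tnf* they were *Mvp* (0.0395), *Hmbox1* (0.0525) and *Csnk2a1* (0.0889). With 4 libraries such closeness is a description. Of the other effector cytokine genes tested, *Il4* was the nearest to *Ifng*, at 0.566, which placed it at rank 2017 among the genes tested, and *Ifng* was in turn at rank 671 from *Il4*. *Il13*, although next to *Il4* on the chromosome, was at 1.47 from it, at rank 6054.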

How the data were processed

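RNA from sorted SI-LP NKT cells was amplified with a low-input kit and sequenced as 4 libraries. The authors deposited raw counts per gene, with gene lengths in bases that are not a measurement. According to the table's header, primary alignments of paired reads were counted on exons with featureCounts 1.6.4, an mm10 RefSeq annotation and no strand option, so reads of overlapping genes on opposite strands cannot be told apart. The aligner named in the methods is HISAT2, and the build they name differs from that of the table, whose GRCm38 coordinates are used here. The table has 6 library columns, and the 2 that match no sample label were not used. Amplification from few cells, with no molecular identifiers, adds spread to genes with low counts.

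TPM was computed from counts and deposited lengths, and CPM with TMM factors (edgeR 4.0.16, R 4.3.3). The experiments were compared over the 11689 genes that reached 10 counts in 2 or more libraries, by the quasi-likelihood test of edgeR, and p-values were adjusted over all of them (Benjamini-Hochberg, threshold 0.05). DESeq2 1.42.0 was an alternative, and an adjusted p it did not give was left as missing. Log2 ratios of genes used TPM + 1, and two-sided exact sign-flip tests were run with scipy 1.17.1. The table holds 0 pairs of identical libraries. The edgeR fit was tested on simulated data. Alternatives were other scaling, filters, pseudocounts and leaving out each library, and the runs without replicates 2 and 4, and those leaving out a library for the count of members with at least 10 counts, were added after the values were seen.

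The members and all gene lists were chosen with earlier results of these data known. Named genes are the members, their neighbours by position, members of the marker, cytokine, receptor and factor lists, and for each member with at least 10 counts in every library the 3 genes of nearest pattern. *Fcgr1*, *Ncr1* and the mast cell genes at 0 were named after their values were seen. Of the listed genes, 2 are not reported here.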

Additional observations from a re-analysis of the deposited data

Results flagged for a closer look

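*Tnf* was flagged because 1 of 4 libraries lay far from the others. In CPM the gap between replicate 4 and the next library was 0.932 of the whole range over 4 libraries, and in TPM it was 0.884. The values were 9.84, 9.19, 10.3 and 25.1 CPM in replicates 1 to 4, from 71, 96, 46 and 100 counts. Counted per 1000 T cell marker counts, *Tnf* was at 2.96, 7.90, 2.02 and 13.3, where the gap was 0.479 of the range and replicate 4 no longer stood alone. Replicate 4 also had the largest epithelial and myeloid marker shares, 3.02% (mostly *Lyz1*) and 0.0171%, and the part of either in *Tnf* was not tested.

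*Il21* was flagged on the CPM, TPM and T cell marker scales, each with a gap of 1 times the range, because its single count in replicate 1 stands against 0 in the other libraries. That count is under the limit of 3 counts, so no difference between the libraries can be read from it.

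In all 24 values were examined in this way, 8 genes on 3 scales, and 5 were flagged, where chance flags about 1 in 20, or 1.2. The scales of a gene share their counts, so these flags are not independent.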

How the results depend on the processing

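Libraries could not be paired between groups because there is a single group of 4, and the sign-flip tests paired genes within each library. The number of genes that passed between the experiments by edgeR was 0 and ranged from 0 to 81 with 1 library left out, 81 without replicate 4 and 10 without replicate 3, where the lone library of an experiment is assumed to vary like the others. It was 41 by DESeq2 and 60 with no filter on low counts, and 0 with the other scalings and with at least 10 counts in every library. An effector cytokine gene was among them under none of these settings. The cause of these shifts was not tested. The log2 fold change of *Il4*, -0.62, turned to 0.20 without replicate 2 (-2.50 to 0.20 with 1 library left out). That of *Il13*, -0.31, turned to 0.71 without replicate 2 and 4.21 without replicate 3 (-5.70 to 4.21). The sign for *Il22* was fixed by its passing of the filter and is not counted here. Those of *Ifng*, *Tnf*, *Il10* and *Csf2* kept their sign under every alternative that gave one. Their size moved: with 1 library left out, *Ifng* ran from -1.34 to -0.13, *Tnf* from -1.40 to -0.11, *Csf2* from -2.61 to -0.54 and *Il10* from 0.55 to 9.53, the last without replicate 4 (unadjusted edgeR p 0.0472), where the first experiment is a lone library with 0 counts. Of the 9 neighbouring pairs in the order by level, 2 had the same direction in every library, and 1 in CPM, where *Tnf* exceeded *Il4* in replicate 2. That count was 2 to 3 with 1 library left out. The highest library exceeded the lowest per T cell marker count by a factor of 1.37 to 2.41 for *Il4*, 3.91 to 6.59 for *Tnf* and 2.33 to 12.2 for *Csf2* with 1 library left out, the lowest values coming without replicates 2, 4 and 1. With *Cd3d*, *Cd3e*, *Cd3g* and *Cd247* alone as markers, it was 1.91 for *Ifng*, 3.03 for *Il4*, 6.30 for *Tnf* and 11.5 for *Csf2*. *Cd3e* had the most counts of the 10 markers in each library (13247, 6428, 9340 and 3408 in replicates 1 to 4), so both scales rest largely on it. The difference between *Ifng* and *Il4* ran from 0.62 to 1.11 with 1 library left out and was 1.40 in CPM, and the share of *Ifng* ran from 49.4% to 52.8%. Mean CPM values moved by less than their SD under every alternative, but over 1.5 times for *Il10* (5.11) and *Il22* (1.09) without replicate 1 and for *Il13* (3.39) without replicate 3. *Il13* in replicates 2 and 4, *Il10* in replicate 3 and *Il22* in replicates 3 and 4 had at most 1 count and *Csf2* 5 in replicate 1, so that depth gives the size of those differences only as limits, and the single count of *Il21* shows none.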
